A study of Mus musculus with 4 samples.

Results

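The plasminogen activators, the urokinase receptor and 2 of the serpins that inhibit the activators were followed as a set of 5 genes in cultured mouse pancreatic ductal cells. The genes were Plau, Plat, Plaur, Serpine2 and Serpinb2, chosen by symbol out of 22869 symbols in the deposited tables. All 5 were found and all 5 passed the filter on low counts. Serpinb2 has 2 RefSeq transcripts, and its row with the higher mean count stands for the gene.

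The study addresses the role of Hhex, a homeodomain regulator of foregut organs, in the ductal epithelium. Primary ductal cells of strain C57BL/6 came from uninduced adult mice, 2 with floxed Hhex alleles alone (genotype HhexL/L, littermate controls) and 2 with the same alleles and a tamoxifen-inducible Cre under Sox9 control (genotype Sox9CreER;HhexL/L). In culture, both groups were given 4-hydroxytamoxifen, which switches this Cre on, at 500 nM over 4 days, so the floxed alleles and the drug are shared by all 4 libraries. Only the second group carries the Cre, and effects of the Cre and of Hhex loss cannot be told apart.

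The libraries held 25257778 to 39582625 counts over transcripts. The targeted gene was not lower under the knockout label: Hhex stood at 24.9 and 17.7 CPM (counts scaled to library size) in control cells against 23.6 and 38.97 CPM under the knockout label. That label is therefore kept only as a label, knockout replicates 1 and 2 name the libraries that carry it, and which exons are floxed is not stated in the labels. Knockout replicate 2 was the only female library by its Xist level of 304.0 CPM, against 0.75 to 1.75 CPM in the other 3. Of 12 ductal cell markers none was called, and all were detected, with Krt8, a keratin of simple epithelia, at 3521 to 4336 CPM and Epcam at 430 to 510 CPM. Groups did not overlap for 7 of them, 2 higher and 5 lower under the knockout label. Over all 15892 genes tested the share was 36.2%, with 18.8% higher and 17.4% lower. Sox9, the ductal transcription factor, stood at 18.0 and 21.4 CPM in control cells against 52.3 and 44.3 CPM (edgeR adjusted p = 0.0521). Muc1, a mucin, stood at 22.7 and 19.2 CPM against 1.80 and 7.35 CPM, and Cftr, the chloride channel, at 33.6 and 35.1 CPM against 13.1 and 22.9 CPM. The part of these differences in the results was not tested.

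Plasminogen activators are serine proteases that cut the plasma zymogen plasminogen into plasmin, a broad protease that dissolves fibrin and helps remodel the matrix around cells. Tissue-type activator (Plat) works best on fibrin, while urokinase (Plau) works mostly at the cell surface, where it binds a lipid-anchored receptor (Plaur). Serpins act as suicide substrates that trap the activators in a covalent complex. In the pancreas, these proteases have been studied mainly in pancreatitis, fibrosis and ductal cancer.

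The activators share their catalytic centre, which is shown here because it bears on whether their reads could be confused. Their transcripts went in opposite directions under the knockout label, and neither was called. The stretches below are coding sequence from GENCODE M21 transcripts (assembly GRCm38), bases 1096 to 1173 of the Plau coding sequence and 1492 to 1569 of that of Plat. Capitals mark the 18 bases that encode the catalytic serine with its conserved glycine, aspartate and proline neighbours.
Plau: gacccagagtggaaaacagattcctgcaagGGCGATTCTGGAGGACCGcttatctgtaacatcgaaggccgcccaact
Plat: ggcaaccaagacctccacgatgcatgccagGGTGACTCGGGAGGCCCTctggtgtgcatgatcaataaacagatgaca
Within the capitals 13 of 18 bases were identical, and over the whole stretch 38 of 78. The longest run of identical bases between the full transcripts of Plau and Plat was 14, and it was 10 to 12 bases for every other pair among the 5 genes. No pair is near-identical over a length that would make counting ambiguous.

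Urokinase was the most abundant of these transcripts in the libraries labelled knockout. Levels of different genes are compared as the authors' deposited RPKM (reads scaled by transcript length and library total), which corrects for transcript length. Plau stood at 54.2 and 77.3 RPKM in control cells against 131 and 117 RPKM under the knockout label. Both labelled-knockout libraries lay above both controls, and the gap between the groups was wider than the spread within either. On the count scale, normalised by TMM (trimmed mean of M values), this was 208 ± 40.6 CPM (SD, n = 2) against 376 ± 18.0 CPM (SD, n = 2). The ratio was 1.81-fold with a 95% interval of 1.32 to 2.47 (log2 fold change 0.85 ± 0.19, SE). It missed the threshold of 0.05 in edgeR's quasi-likelihood test once adjusted over 20949 transcripts (unadjusted p = 0.0027, Benjamini-Hochberg adjusted p = 0.241). DESeq2 gave an adjusted p of 0.0011 and the edgeR exact test one of 0.0183 for the same comparison. These tests called 366 and 270 of the 20949 transcripts, where the quasi-likelihood test called 37. Plau passed in 2 of the 12 other settings run with all libraries.

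Tissue-type activator was the lower of the pair by RPKM in every library, though almost level with urokinase in control replicate 1. Plat stood at 53.2 and 47.6 RPKM in control cells against 32.5 and 13.8 RPKM under the knockout label. The groups did not overlap, and the libraries labelled knockout were further apart from each other than the controls were. In CPM the means were 174 ± 23.1 (SD, n = 2) and 75.2 ± 40.5 (SD, n = 2). The control mean was 2.31-fold the other, with a 95% interval of 1.31 to 4.07 (log2 fold change -1.21 ± 0.35, SE). This too missed the threshold (edgeR unadjusted p = 0.0099, adjusted p = 0.409), whereas DESeq2 gave an adjusted p of 0.0159. Plat passed in that 1 of the 12 other settings run with all libraries. Knockout replicate 2, the female library, carried much of the difference: the log2 fold change was -0.76 without it and -1.93 without knockout replicate 1.

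**Figure D1:**
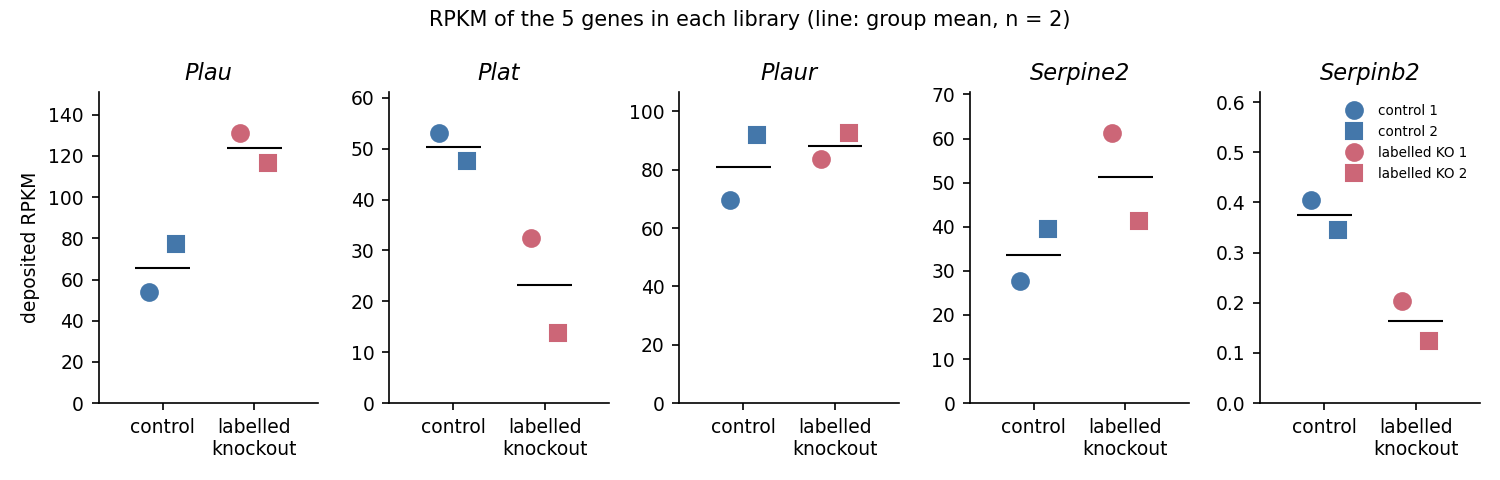
Deposited RPKM (vertical axis, a separate scale from 0 in each panel) of the 5 genes in the 2 control libraries (blue) and the 2 libraries labelled knockout (red), with a line at each group mean. Plau and Serpine2 lay higher and Plat and Serpinb2 lower in both labelled-knockout libraries than in both controls. The groups overlapped for Plaur, which ranged from 69.8 to 92.8 RPKM over the libraries.

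The ratio of the activators was compared next. A ratio within a library does not depend on how that library was scaled. The Plau to Plat ratio of RPKM was 1.02 in control replicate 1 and 1.63 in control replicate 2. It was 4.05 in knockout replicate 1 and 8.43 in knockout replicate 2. The activators were thus near equal in control replicate 1 only, and the ratio was higher in both libraries labelled knockout than in both controls. The mean log2 ratio was 0.36 ± 0.48 (SD, n = 2) and 2.55 ± 0.75 (SD, n = 2), a difference of 2.18 or 4.54-fold. An exact two-sided permutation test over the 4 libraries gave p = 0.333, the smallest that 2 libraries against 2 allow, so this test could not pass 0.05 whatever the ratios were. Leaving out 1 library at a time, the difference lay between 1.65 and 2.71 on the log2 scale.

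**Figure D2:**
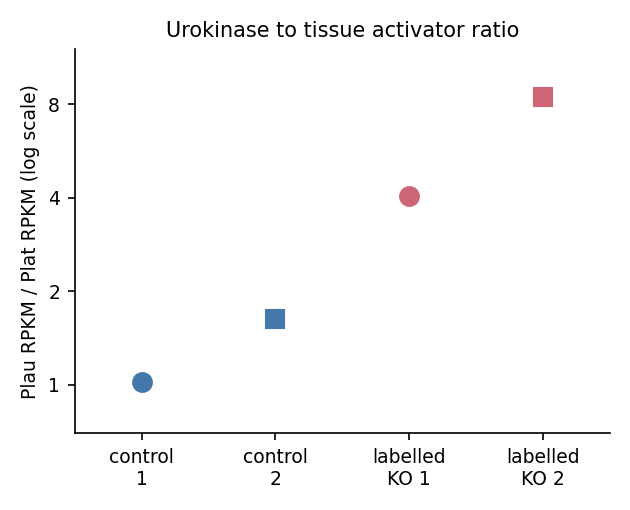
Ratio of Plau RPKM to Plat RPKM (vertical axis, log scale) in each of the 4 libraries. The controls sit at 1.02 and 1.63, and the libraries labelled knockout at 4.05 and 8.43.

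The receptor transcript overlapped between the groups. Plaur, the membrane anchor of urokinase, stood at 69.8 and 91.96 RPKM in control cells against 83.7 and 92.8 RPKM under the knockout label. Control replicate 2 was almost level with knockout replicate 2. The fold change was 1.05 (95% interval 0.787 to 1.39, edgeR adjusted p = 0.977). That interval leaves room for a change of up to 1.39-fold upward or 1.27-fold downward. It does not reach the 1.81-fold of Plau but overlaps the interval of Plau, which starts at 1.32-fold. The difference between the changes of Plau and Plaur was not tested.

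The promoters of 3 of the 5 genes, Plaur, Serpine2 and Serpinb2, were found in a RefSeq table of assembly GRCm38.p6 and are shown because these genes range from the most steady to the scarcest of the set. Plau and Plat were not matched. Each line gives the 250 bases before the annotated start site, 5′ to 3′ on the strand of the gene. Plaur lies on the plus strand at chr7:24462233-24462482, Serpine2 on the minus strand at chr1:79858666-79858915 and Serpinb2, for the first of its 2 start sites, on the plus strand at chr1:107511173-107511422. Capitals mark every match to 4 motifs searched on both strands: the AP-1 site TGAGTCA, the GC box GGGCGG, the TATA box TATAAA and the homeodomain core TAATTA.
Plaur: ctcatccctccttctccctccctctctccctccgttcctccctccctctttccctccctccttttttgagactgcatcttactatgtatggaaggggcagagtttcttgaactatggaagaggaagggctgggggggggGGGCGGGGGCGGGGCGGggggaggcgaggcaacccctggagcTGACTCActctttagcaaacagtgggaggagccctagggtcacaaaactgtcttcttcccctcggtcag
Serpine2: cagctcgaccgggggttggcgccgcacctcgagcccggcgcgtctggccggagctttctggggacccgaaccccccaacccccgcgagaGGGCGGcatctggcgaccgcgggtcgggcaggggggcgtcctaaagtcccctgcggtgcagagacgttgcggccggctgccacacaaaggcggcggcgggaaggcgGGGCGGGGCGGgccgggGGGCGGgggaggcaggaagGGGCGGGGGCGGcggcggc
Serpinb2: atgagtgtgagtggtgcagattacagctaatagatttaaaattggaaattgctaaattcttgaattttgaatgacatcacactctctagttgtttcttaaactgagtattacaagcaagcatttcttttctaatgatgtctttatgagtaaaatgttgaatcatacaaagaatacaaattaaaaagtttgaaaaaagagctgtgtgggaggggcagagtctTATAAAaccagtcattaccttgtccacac
The Plaur window held 1 AP-1 site, 69 bases before the start, and 3 GC boxes, of which the last 2 share a base. AP-1 sites of this spelling occurred in 4.46% of 32851 such windows and GC boxes in 32.7%. Serpine2 had 6 GC boxes, some of which overlap, in a window of 78.8% GC with 34 CpG dinucleotides, against medians of 52.4% and 6 over all windows. Serpinb2 had 1 TATA box, 29 bases before the start, in a window of 32.4% GC with 0 CpG dinucleotides, and TATA boxes occurred in 12.4% of windows. No window of the 3 held the homeodomain core, which occurred in 4.84%. These are matches of letters and show nothing about the binding of a factor.

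Serpine2 was the more abundant of the serpins in the set. It encodes protease nexin 1, a cell-associated inhibitor of thrombin, urokinase and tissue-type activator. Serpine2 stood at 27.7 and 39.5 RPKM in control cells against 61.4 and 41.4 RPKM under the knockout label. The groups did not overlap, but control replicate 2 and knockout replicate 2 nearly met. The fold change was 1.46 with a 95% interval of 1.02 to 2.09 (edgeR unadjusted p = 0.0425, adjusted p = 0.628). Without knockout replicate 1 the log2 fold change fell from 0.54 to 0.25, so that library held most of the difference.

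Serpinb2 encodes plasminogen activator inhibitor 2, an inhibitor of urokinase that macrophages and stressed epithelia make. It was close to the limit of detection, at 31 and 22 counts in control cells and 19 and 10 counts in the libraries labelled knockout. This corresponded to 1.13 CPM with a 95% Poisson interval of 0.767 to 1.60 and 0.892 CPM (0.559 to 1.35) in control cells. Under the knockout label it was 0.509 CPM (0.306 to 0.795) and 0.323 CPM (0.155 to 0.593). These intervals cover counting error only. The values did not overlap between groups, yet the counting intervals did, except between control replicate 1 and knockout replicate 2. The log2 fold change of -1.27 ± 0.65 (SE) had an edgeR adjusted p of 0.764, so no difference was detectable at this depth. Its 2 transcripts had 31 and 29 counts in control replicate 1 and equal counts in both labelled-knockout libraries, and they are not separate measurements.

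Ordered by mean RPKM over the 4 libraries, the genes ranked Plau, Plaur, Serpine2, Plat and Serpinb2, at 94.8, 84.5, 42.5, 36.8 and 0.270 RPKM. Plau exceeded 98.5% of all 22869 genes and Serpinb2 exceeded 41.9%. Neighbours in that order were not always distinct. Plaur exceeded Plau in both controls, and Plau exceeded Plaur in both libraries labelled knockout, with ratios of Plau to Plaur from 0.776 to 1.57. Serpine2 and Plat changed places in the same way, at Serpine2 to Plat ratios of 0.522 and 0.831 in control cells and 1.89 and 2.99 in the others. Plaur lay above Serpine2, and Plat above Serpinb2, in 4 of 4 libraries.

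None of the 5 genes was called, against 0.177% of all transcripts tested (37 of 20949). At an unadjusted p under 0.05 there were 3 of 5, Plau, Plat and Serpine2, against 7.46% of 15892 genes with 1 transcript each. Groups did not overlap for 4 of 5, against 36.2% of those genes. These 5 genes were picked with earlier results of the same data known, so the shares describe them and do not set them apart. With each library dropped in turn, Plau, Plat and Serpine2 kept their direction, and only Plaur changed sign. In those fits a single library stands for 1 group and is assumed to vary like the others, so only effect sizes are given for the 5 genes. The log2 fold change of Serpine2 was 0.25 without knockout replicate 1 and 0.76 without knockout replicate 2.

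**Figure D3:**
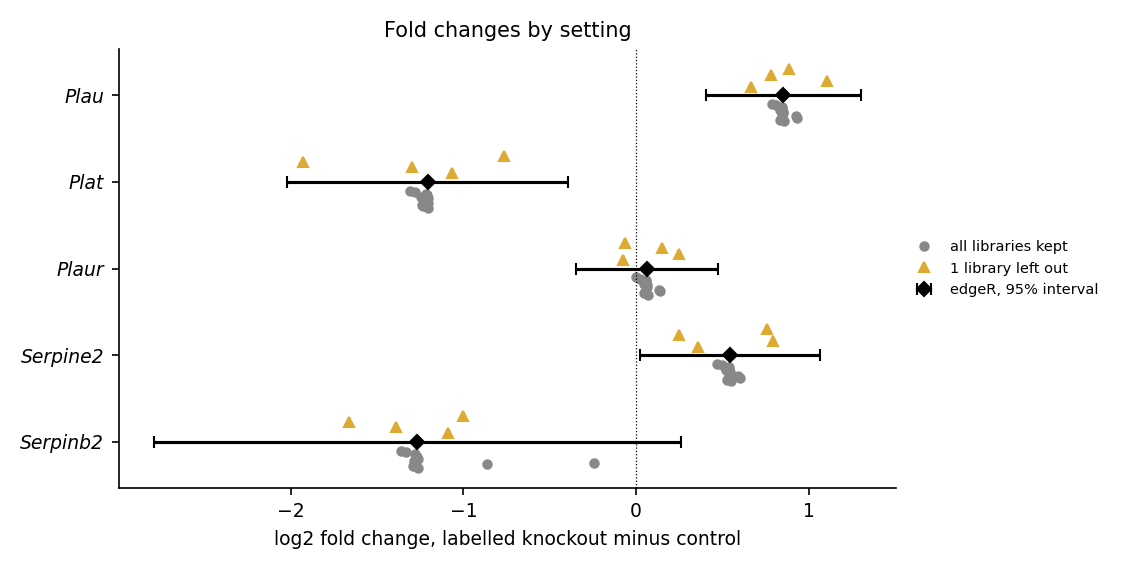
Log2 fold change (horizontal axis, labelled knockout minus control) of each gene in edgeR with its 95% interval (black), under 12 other settings with all libraries (grey, 11 for Serpinb2) and with 1 library left out (yellow). Plau stayed between 0.66 and 1.11 and Plat between -1.93 and -0.76, while Plaur lay on both sides of 0.

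In what follows, a pair of values after "against" is from the libraries labelled knockout unless control cells are named there. For comparison with the counts of signs below, 7688 fold changes were positive and 8204 negative over all 15892 genes tested. Of the 4 other serpins described here that inhibit the activators or plasmin, 1 had a mean above 1 CPM. Serpini1, the gene of neuroserpin, an inhibitor of tissue-type activator, was lower at 5.87 and 7.23 CPM against 13.2 and 10.7 CPM in control cells, without passing (log2 fold change -0.87, edgeR adjusted p = 0.304). Serpina5, Serping1 and Serpinf2 stayed under 1 CPM in every library. Plg, the gene of plasminogen itself, was at 0.947 CPM in control replicate 1 and at most 0.321 CPM in the other 3, so these cultures held the activators with almost no transcript of their substrate. Of the 8 genes for plasminogen, plasmin controls and contact-phase enzymes, only Thbs1, a matrix glycoprotein that binds plasmin, had a mean above 1 CPM. It ranged from 340 to 576 CPM over the libraries, and its groups overlapped.

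Genes for cell surface receptors of plasminogen were examined next. All 4 listed were above both controls in both labelled-knockout libraries, beside 18.8% of all genes tested. None passed edgeR, and their median log2 fold change was 0.67 against -0.01 over all 15892 genes tested. Anxa2, which encodes annexin A2, stood at 635 and 830 CPM in control cells against 1256 and 1350 CPM (edgeR adjusted p = 0.299). Its partner in the heterotetramer that docks plasminogen, S100a10, stood at 372 and 471 CPM against 622 and 746 CPM (edgeR adjusted p = 0.410). Eno1, the enolase that also serves as a plasminogen receptor, stood at 42.7 and 31.95 CPM against 66.5 and 49.7 CPM, and it has near copies in the genome that could share its reads. The gene of the plasminogen receptor with a C-terminal lysine, Plgrkt, is listed under the older name 5033414D02Rik and stood at 18.2 and 18.0 CPM against 23.3 and 22.4 CPM.

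Receptors that clear protease-serpin complexes were divided. Of 9 tested, 5 had positive and 4 negative fold changes, none was called, and the median log2 fold change was 0.16. Sorl1, a sorting receptor that binds such complexes, stood at 16.8 and 16.7 CPM in control cells against 41.8 and 24.4 CPM (edgeR adjusted p = 0.328). Lrp1, the main endocytic receptor for them, stood at 26.6 and 21.8 CPM against 12.5 and 21.2 CPM (edgeR adjusted p = 0.756). Lrp2, or megalin, was at 5.39 and 2.92 CPM against 5.55 and 8.48 CPM, and the lowest labelled-knockout library barely exceeded the highest control. Lrp8 went from 15.5 and 11.1 CPM to 10.8 and 10.2 CPM, with little space between the groups.

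Among partners of the urokinase receptor, integrin genes of the epithelium were abundant. Of 9 tested, 4 had positive and 5 negative fold changes and none was called. Itgb3, whose product forms the vitronectin receptor with the alpha V chain, was lower at 4.10 and 2.48 CPM against 7.62 and 7.62 CPM in control cells (log2 fold change -1.21 ± 0.29, SE, edgeR adjusted p = 0.287). Itga3, a laminin receptor chain that can bind the urokinase receptor, stood at 1003 and 1053 CPM against 1210 and 1356 CPM (edgeR adjusted p = 0.804). Itgb1 ranged from 2067 to 3204 CPM over the libraries, and its groups overlapped. Itga5, the fibronectin receptor chain, ranged from 9.42 CPM in knockout replicate 2 to 27.5 CPM in control replicate 2 and overlapped as well.

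Of the 9 genes listed for epithelial surface proteases and their inhibitors, 8 had a mean of at least 1 CPM. St14, which encodes matriptase, an activator of pro-urokinase, stood at 297 and 311 CPM in control cells against 347 and 315 CPM (edgeR adjusted p = 0.957). Tmprss2, another membrane-anchored serine protease, stood at 49.7 and 53.3 CPM against 76.4 and 76.5 CPM, with little spread within either group (log2 fold change 0.57 ± 0.14, SE, edgeR adjusted p = 0.275). Tmprss4 stood at 7.40 and 8.11 CPM against 10.3 and 13.8 CPM, and Prss8, the gene of prostasin, at 27.7 and 34.9 CPM against 36.5 and 35.9 CPM. Hpn, which encodes hepsin, was at 44.4 to 47.6 CPM in 3 libraries and at 14.0 CPM in knockout replicate 2. Of the 9 genes tested, which were proteases, Kunitz inhibitors and F2rl1, 6 had positive fold changes. Their median log2 fold change was 0.12 and none was called.

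Most of the 12 substrates listed were barely expressed, and 4 of the 12 had a mean of at least 1 CPM. Pdgfc, a growth factor that tissue-type activator can process, stood at 2.81 and 2.51 CPM in control cells against 5.89 and 7.39 CPM (log2 fold change 1.32 ± 0.26, SE, edgeR adjusted p = 0.190). Pdgfd, whose product urokinase can process, ranged from 102 to 133 CPM over the libraries, and its groups overlapped. Mmp13, a collagenase that plasmin can activate, stood at 1.86 and 2.47 CPM against 0.670 and 0.581 CPM (edgeR adjusted p = 0.347). Over the 11 substrates tested, 4 fold changes were positive and 7 negative.

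Other clade B serpins are relatives of Serpinb2. Of 9 tested, none was called and 7 had positive fold changes, with a median log2 fold change of 0.47. Serpinb8, an inhibitor of furin, stood at 30.4 and 39.8 CPM in control cells against 70.0 and 63.8 CPM (log2 fold change 0.93 ± 0.17, SE, edgeR adjusted p = 0.164). Serpinb5, the gene of maspin, stood at 25.8 and 35.9 CPM against 45.4 and 45.2 CPM (edgeR adjusted p = 0.498). Serpinb9b and Serpinb6b stood at 1096 and 1668 CPM in knockout replicate 2, against at most 361 and 828 CPM in the other 3 libraries, and both belong to families of near copies that could share reads. Of the 11 genes tested from the Ly6/uPAR domain family, to which Plaur belongs, none was called and 5 had positive fold changes. Cd59a, which encodes a complement inhibitor, stood at 77.9 and 83.9 CPM against 24.6 and 61.9 CPM, and Psca at 0.874 and 0.730 CPM against 2.41 and 1.55 CPM. Ly6a stood at 160 and 174 CPM against 157 and 72.1 CPM, and Ly6e stood at 262 and 236 CPM against 293 and 275 CPM.

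**Figure D4:**
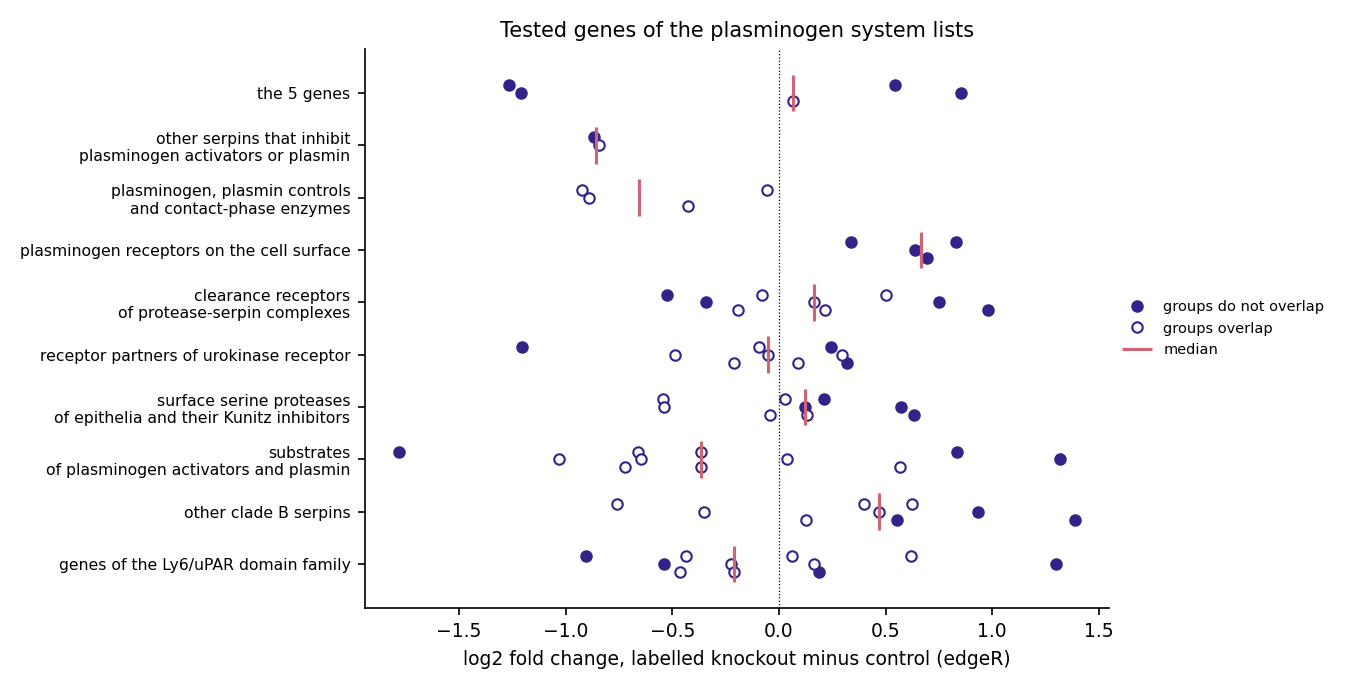
Log2 fold change (horizontal axis, labelled knockout minus control, edgeR) of each tested gene of the 5-gene set and of the plasminogen system lists. Filled points mark genes whose groups do not overlap and red lines list medians, and the 4 plasminogen receptors all lie to the right of 0 with a median of 0.67.

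Over all these lists together, 68 of 85 genes were tested and none was called in either direction, beside 0.177% of all transcripts tested. An unadjusted edgeR p under 0.05 was reached by 15 of the 68, beside 7.46% of 15892 genes. The lists were chosen with earlier results of these data known, so these shares only describe them. Groups did not overlap for 19 genes upward and 7 downward, beside 18.8% and 17.4% of all genes tested. The median log2 fold change was 0.03.

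Genes with the pattern most like each of the set were sought among 10190 others, by the root mean square difference of log2 CPM over the 4 libraries after centring. Serpinb8 was the nearest to Plau, at a difference of 0.040, followed by Pdzk1ip1 at 0.056. Hspb8, a small heat shock protein gene, was the nearest to Plat at 0.090, followed by Cbs, the gene of cystathionine beta-synthase, at 0.13. Hspb8 stood at 71.4 and 62.3 CPM in control cells against 36.7 and 19.4 CPM, with the same order of libraries as Plat. Epn2 and Slc1a4 were nearest to Serpine2 (0.022 and 0.039), and Acad8 and Rad54l to Plaur (0.011 and 0.012). Between the 5 genes, Plau and Serpine2 were the closest pair at 0.22 and Plau and Plat the most distant at 1.18, with Serpinb2 not compared because of its low level.

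Markers of other cell types were examined, and the sums of some lists differed between the groups. In bulk RNA, fewer cells of a type and less RNA per cell cannot be told apart. Endothelial cells are a known source of tissue-type activator, and 10 endothelial markers summed to 33.5 and 22.8 CPM in control cells and to 15.4 and 20.6 CPM under the knockout label. All 9 tested had negative fold changes, beside 8204 of the 15892 genes tested, and none was called. The genes were measured in the same 4 libraries, so their signs are not independent. Egfl7 alone gave 17.4 and 16.6 CPM of these sums in control cells and 10.6 and 9.26 CPM in the others. Without it the sums were 16.1 and 6.20 CPM against 4.80 and 11.3 CPM, and the groups overlapped. The defining endothelial genes Pecam1 and Cdh5 were near 0, at 0.243 to 1.02 CPM. The share of Plat that came from such cells was not tested. Fibroblast and stellate markers, 12 genes, summed to 27.5 and 24.0 CPM and to 11.7 and 13.2 CPM, with Dcn at 0.107 to 0.129 CPM and 9 of 10 tested fold changes negative. Sparc, which encodes a matrix glycoprotein, stood at 11.99 and 13.1 CPM in control cells against 4.53 and 3.48 CPM (log2 fold change -1.64, edgeR adjusted p = 0.0609). Without Sparc the sums were 15.5 and 10.99 CPM against 7.15 and 9.68 CPM and still did not overlap. Between control replicate 2 and knockout replicate 2, the nearest of these sums, Acta2 alone (3.85 against 0.839 CPM) differed by more than the sums did. The separation thus rested on few genes. Of the 10 tested, groups did not overlap for 4, all lower, beside 17.4% of all genes tested, and Col1a1 overlapped. Fibroblasts also express Plau and Serpine2, and the part of such cells in the values of these genes was not tested. Macrophage and myeloid markers had sums of 128 to 215 CPM over the libraries, and the groups overlapped. Nearly all of each sum was Cd14, while Ptprc was at 0.295 to 0.802 CPM. Mesothelial markers summed to 2212 and 2768 CPM and to 3695 and 5507 CPM, of which Msln and Krt19 made up nearly all. Without Msln the sums were 628 and 755 CPM against 556 and 1021 CPM, and the groups overlapped. Of 6 mesothelial markers tested, 4 fold changes were positive and 2 negative. Wt1 was at most 1.06 CPM, and Upk1b stood at 0.474 and 0.487 CPM in control cells against 2.14 and 3.61 CPM. The sums of acinar, islet and neural markers were under 6 CPM in each library. The acinar sums, 4.52 and 2.03 CPM in control cells against 1.93 and 3.84 CPM, had the same order of libraries as the endothelial sums without Egfl7. The islet and neural sums had other orders. What lies behind the shared order was not tested. Of the 7 hepatocyte genes, Alb was at most 0.765 CPM, and the sum was 86.7 and 60.7 CPM in control cells and 53.2 and 5.29 CPM in the others, lowest in the same library as Plat. Most of it in 3 libraries was Trf, the transferrin gene, at 79.1 and 53.7 CPM against 51.8 and 2.65 CPM, while Apob stood at 4.81 and 5.35 CPM against 0.804 and 1.32 CPM. None of the lists had a called gene, and their part in the values of the 5 genes was not tested.

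**Figure D5:**
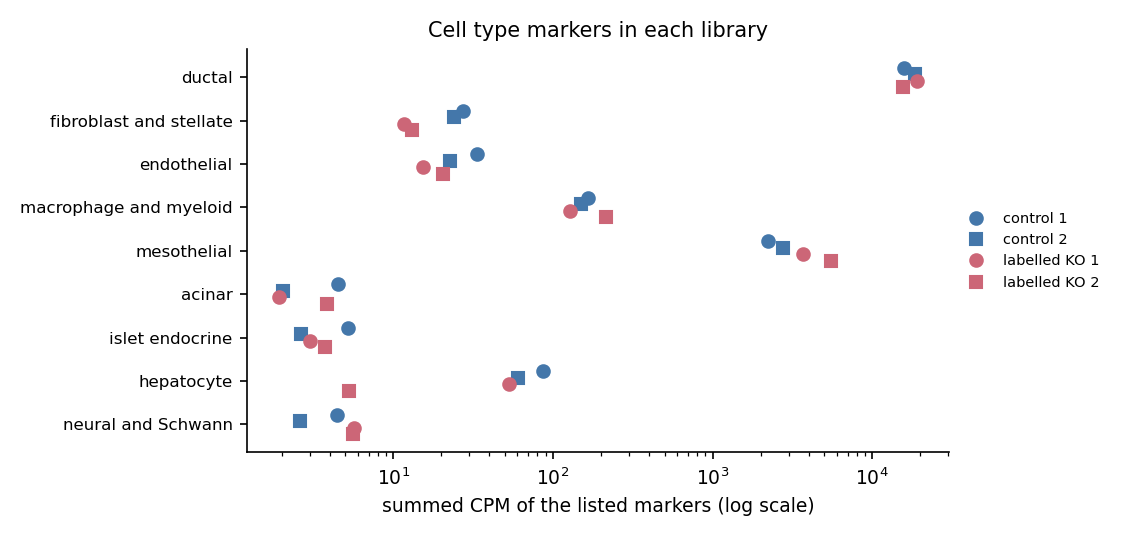
Summed CPM (horizontal axis, log scale) of the markers of each cell type in the 4 libraries, controls in blue and labelled knockout in red. Ductal markers sum to at least 15610 CPM in each library, while endothelial and fibroblast markers stay under 34 CPM and are lower in both libraries labelled knockout, for the endothelial list only with Egfl7 counted.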

How the data were processed

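RNA-seq covered 2 control libraries and 2 labelled Hhex knockout from primary mouse ductal cells. Per the labels' protocols, an Illumina TruSeq kit was used on 77 to 210 ng of total RNA. The authors deposited whole-number counts and RPKM values per RefSeq transcript (28644 transcripts), not pooled. The submitters' processing notes name mm9 and edgeR. The aligner, the counting program and its use of strand are not given in the sources used here. By the ratio of count to RPKM, the library totals behind the deposited RPKM were 0.832, 1.22 and 1.06 times that of control replicate 1 in control replicate 2, knockout replicate 1 and knockout replicate 2, so levels in RPKM and in CPM need not agree exactly.

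The test used edgeR 4.0.16 in R 4.3.3: filterByExpr (minimum count 10, total 15), TMM factors, quasi-likelihood F test, Benjamini-Hochberg over 20949 transcripts, threshold 0.05. SE is the fold change divided by the root of F. CPM refers to the TMM-scaled library. Intervals are 95%. Alternatives used DESeq2 1.42.0 and limma 3.58.1. The transcript with the highest mean count stands for a gene. The genes and lists were chosen with earlier results of these data known. Named from each pathway list were called genes and up to 4 with the smallest p and a mean of at least 1 CPM, for cell types the sum and defining genes, and for each of the set the 2 nearest genes at a mean of at least 5 CPM. One listed gene is not reported here and was left out of the counts over lists. Some values beside these, such as those of Plg, Serpina5 and St14, and single markers such as Egfl7, Sparc, Trf and Muc1, were named after they were seen. Older symbols were matched through a RefSeq table of GRCm38. The series design states 2 mice per group. No library was left out of the main results.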

Additional observations from a re-analysis of the deposited data

How the results depend on the processing

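Direction was the same as in the main test for Plau, Plat, Serpine2 and Serpinb2 under every setting run. Plau passed the threshold with the edgeR exact test (log2 fold change 0.85) and DESeq2 (0.85), and Plat with DESeq2 (-1.22). With 1 library left out in turn, the log2 fold change ran from 0.66 to 1.11 for Plau, from -1.93 to -0.76 for Plat, from 0.25 to 0.80 for Serpine2 and from -1.66 to -1.01 for Serpinb2. Plaur ran from -0.07 to 0.25 and turned negative without control replicate 1 (-0.074) and without knockout replicate 2 (-0.066). With log2(RPKM + 1) the Serpinb2 value shrank to -0.24, by construction of the pseudocount at its low level. At a minimum of 1 CPM in 2 libraries Serpinb2 was not tested. The Plau to Plat difference was 2.18 with CPM in place of RPKM, as transcript length cancels, and ran from 1.65 to 2.71 with 1 library left out.

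The count of called transcripts was 37, 27 higher and 10 lower. It was 5 with library totals or upper-quartile factors (0 higher, 5 lower in both), 79 with no filter, 4 with at least 1 CPM in 2 libraries, 84 with the robust fit, 270 with the edgeR exact test and 366 with DESeq2. It was 190 and 221 with limma-trend on log2 RPKM plus 1 and 0.1, and 2 with 1 transcript per gene. Leaving out 1 library gave 13 to 1735. The cause of these differences was not tested. No paired analysis was possible because the labels give the groups no shared replicate numbers. Depth limits Serpinb2, with at most 31 counts in a library.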
